A study of Homo sapiens with 8 samples.

Results

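The 9 loci described here are the genes of GATA4, GATA6, SOX17, FOXA2, EOMES, T, PAX6, OTX2 and SOX1, each taken as its hg19 span with 5 kb on either side. They were chosen by name, as transcription factors that direct the first lineages of the embryo. The rule used no methylation level, but earlier results of these data were known when it was set. The windows held 2427 of the 3209182 CpGs listed in any library, and 1835 of these were listed in all 8 libraries. The DNA came from HUES64, an established human embryonic stem cell line, whose derivative carries the genotype DNMT1 knockout in every library. DNMT1* was withdrawn, and RRBS (reduced representation bisulfite sequencing, in which MspI cuts DNA at CCGG and the CpGs of the short fragments are read) was done on 1 library per day from day 0 to day 7. No day was repeated, so day 0 serves as the reference, each day has 1 value, and p values of trends do not cover variation between courses. Whether the line is 1 clone is not given in the sources used here.

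DNMT1 copies CpG methylation onto the new DNA strand after replication, and DNMT1* is an exogenous copy that keeps a line lacking the endogenous enzyme alive. In human embryonic stem cells the CpG islands of developmental transcription factors are typically free of DNA methylation and carry Polycomb marks while the genes are off or very low. OTX2 is expressed in these cells, and the others are known for their rise when cells leave pluripotency. The level of a CpG is the percentage of its reads that were methylated, and the mean of a locus weights each CpG equally.

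RefSeq promoters (GRCh38.p14, the 250 bases before the gene start, written along the gene's strand) are printed to show how differently the starts are built. The data list only CpGs, and RRBS reaches them through CCGG. An entry at the outermost start of the gene was found for 5 of the 9 genes. Capitals mark CG. GATA6 lies at chr18:22169339-22169588 on the plus strand, T at chr6:166168656-166168905 on the minus strand, PAX6 at chr11:31817962-31818211 on the minus strand, OTX2 at chr14:56810480-56810729 on the minus strand and SOX1 at chr13:112066899-112067148 on the plus strand.
GATA6: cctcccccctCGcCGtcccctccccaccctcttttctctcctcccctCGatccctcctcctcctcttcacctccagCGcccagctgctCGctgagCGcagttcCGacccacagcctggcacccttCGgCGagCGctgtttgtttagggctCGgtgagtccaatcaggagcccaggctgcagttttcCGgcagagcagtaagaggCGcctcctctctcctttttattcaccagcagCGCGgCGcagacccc
T: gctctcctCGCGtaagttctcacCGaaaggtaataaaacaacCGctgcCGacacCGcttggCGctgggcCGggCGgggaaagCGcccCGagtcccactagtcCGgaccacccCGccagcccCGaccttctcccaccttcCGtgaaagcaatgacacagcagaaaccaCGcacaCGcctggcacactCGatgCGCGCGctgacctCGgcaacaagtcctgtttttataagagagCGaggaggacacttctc
PAX6: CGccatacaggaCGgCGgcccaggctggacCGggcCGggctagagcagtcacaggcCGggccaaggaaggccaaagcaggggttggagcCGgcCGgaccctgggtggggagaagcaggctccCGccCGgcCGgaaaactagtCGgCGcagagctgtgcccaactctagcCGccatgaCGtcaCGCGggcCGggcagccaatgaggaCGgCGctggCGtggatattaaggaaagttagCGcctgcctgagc
OTX2: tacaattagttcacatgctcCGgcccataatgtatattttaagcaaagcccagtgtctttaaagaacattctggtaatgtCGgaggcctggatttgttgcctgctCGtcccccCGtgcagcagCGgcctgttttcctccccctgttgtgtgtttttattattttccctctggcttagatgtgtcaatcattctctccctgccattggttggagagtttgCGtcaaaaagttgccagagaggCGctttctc
SOX1: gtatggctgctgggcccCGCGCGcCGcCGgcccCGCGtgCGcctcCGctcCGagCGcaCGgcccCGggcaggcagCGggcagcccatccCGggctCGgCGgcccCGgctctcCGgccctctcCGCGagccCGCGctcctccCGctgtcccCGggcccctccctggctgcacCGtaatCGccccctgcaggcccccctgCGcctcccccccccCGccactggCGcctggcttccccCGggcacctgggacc
CG and CCGG read the same on both strands, and each CCGG contains a CG. The SOX1 promoter held 31 CG and 7 CCGG, T held 23 CG and 2 CCGG, PAX6 held 22 CG and 8 CCGG, GATA6 held 16 CG and 1 CCGG, and OTX2 held 7 CG and 1 CCGG. The median over 35116 RefSeq promoters of this length was 11 CG. At least 1 CG was present in 93.9% of them and at least 1 CCGG in 58.5%. SOX1 thus stood among the densest, with as many CG in only 10.9% of promoters, and OTX2 below the median. These coordinates are GRCh38 and were not matched to the hg19 CpGs below.

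Depth split the libraries. The total of reads over CpGs was 77691782 to 161534152 on days 0, 1, 2, 6 and 7 (median per listed CpG, 21 to 44), against 12359218 to 15156251 on days 3, 4 and 5 (median 4). Single values of days 3 to 5 are therefore rough, and each trend was also computed over the 5 deep libraries alone, where 1919 CpGs of the 9 loci had 10 or more reads in each. The labels name no batch, but the shallow days lie together in the course. RRBS reads carry no molecular identifiers here, so intervals cover counting error only.

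Most of this DNA carried little methylation before the withdrawal. By the pooled reads of days 0 and 1, 1677 of the 1835 CpGs (91.4%) were at 20% or less, 111 (6.05%) lay between 20% and 80%, and 47 (2.56%) were at 80% or more. In the rest of the autosomes, 31.2% of 2403641 CpGs were at 20% or less and 41.7% at 80% or more. SOX17 had 191 CpGs at 20% or less and none above, and SOX1 had 221 of 223. OTX2 was the least uniform, with 44 of 183 CpGs between the limits and none at 80% or more. The 47 highly methylated CpGs belonged to GATA4 (14), GATA6 (11), PAX6 (10), T (9) and FOXA2 (3).

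The mean level fell over the 8 days at 7 of the 9 loci, by a least-squares slope on day tested by exact two-sided permutation of the days, with unadjusted p values below 0.05. The same test called a fall in 96.8% of 4077 autosomal 20-kb windows with 100 or more CpGs, so the members' share lies below that of windows in general. These windows were not matched to the loci by starting level, and its part in the difference was not tested. On day 0 the means ran from 0.494% (SOX1) to 11.7% (GATA4), and on day 7 from 0.161% (SOX17) to 2.29% (GATA4). SOX17 and SOX1, the loci that began below 1%, did not pass. No locus rose.

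**Figure D1:**
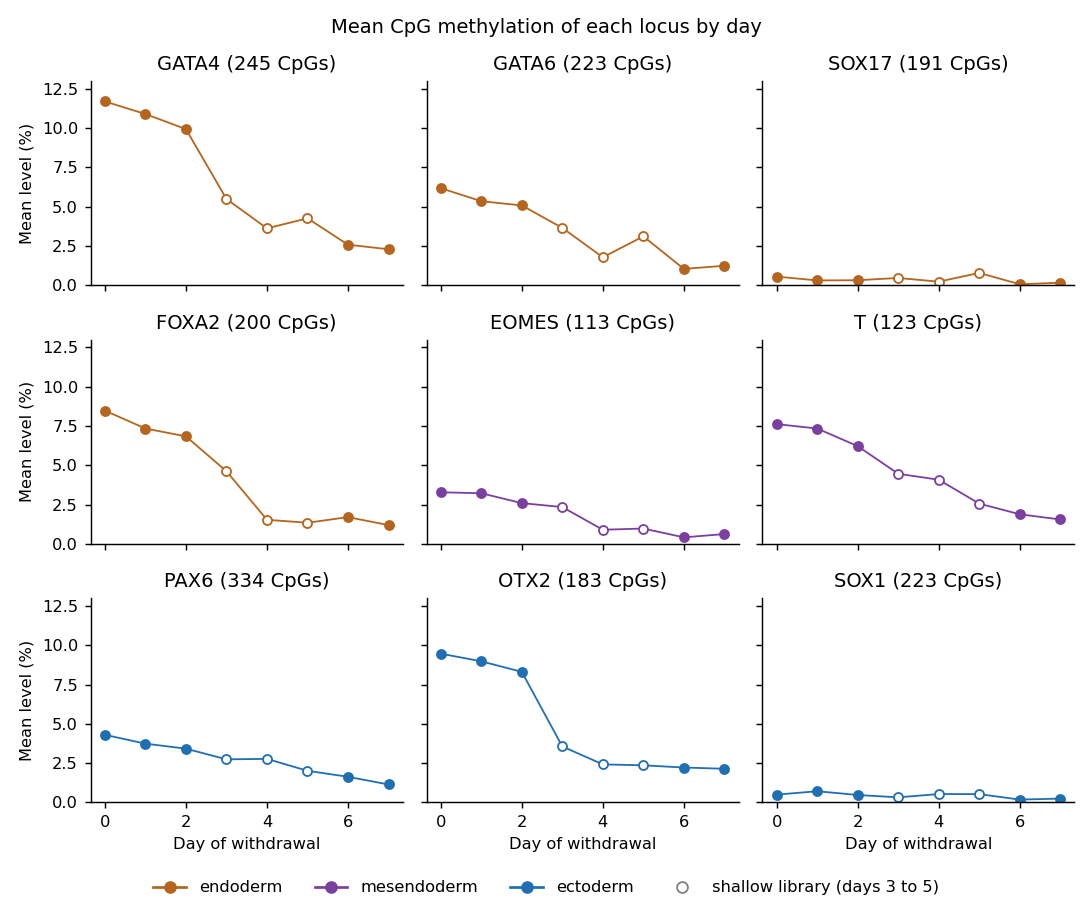
Mean CpG methylation (%, vertical axis) of each of the 9 loci on days 0 to 7 of DNMT1* withdrawal (horizontal axis), 1 library per day, with open points for the shallow days 3 to 5 and colour for the lineage group. GATA4 starts highest, at 11.7%, SOX17 and SOX1 stay below 1%, and the other loci go down to between 0.620% and 2.14% on day 7.

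Among the endoderm regulators, GATA4, a zinc finger factor of heart and endoderm, had means of 11.7, 10.9, 9.94, 5.49, 3.62, 4.26, 2.58 and 2.29% on days 0 to 7 over 245 CpGs. Each of days 0 to 2 was above each of days 3 to 7. The slope was -1.50 ± 0.203 percentage points per day (SE, 8 libraries, exact permutation p = 0.00015), and -1.57 over the 5 deep libraries (exact permutation p = 0.0083, the smallest they gave for any locus). The methylated CpGs were those of the gene body, at 18.9% on day 0 and 3.71% on day 7 over 129 CpGs, and of the downstream flank, where 4 CpGs stood at 85.7% and then 13.3%. Upstream of the start, the flank was at 1.33% and then 0.506%.

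GATA6, the related factor of primitive and definitive endoderm, had means of 6.18, 5.35, 5.08, 3.65, 1.78, 3.11, 1.04 and 1.24% over 223 CpGs. Again days 0 to 2 were the 3 highest. The slope was -0.760 ± 0.110 points per day (exact permutation p = 0.0013). All 16 of its CpGs above 20% lay in the gene body, which went from 12.0% on day 0 to 2.18% on day 7. The 56 CpGs of its upstream flank were at 0.115% and 0.516% on these days.

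FOXA2, a forkhead factor that opens chromatin in endoderm, had means of 8.48, 7.34, 6.84, 4.62, 1.53, 1.34, 1.70 and 1.19% over 200 CpGs. Days 0 to 3 were all above days 4 to 7, and the slope was -1.18 ± 0.176 points per day (exact permutation p = 0.0004). It kept 14.0% of its day 0 mean on day 7, and the other 6 loci that fell kept 18.9% to 26.6%. These shares have 1 library on each side, and their differences were not tested. Methylation lay on both sides of the start, at 19.9% in the upstream flank and 15% in the gene body on day 0, against 3.37% and 1.82% on day 7. The downstream flank, with 47 CpGs, was at 0.314% and 0.097%.

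SOX17, an HMG-box factor of definitive endoderm and of the germ line, had 191 CpGs with means of 0.550, 0.306, 0.318, 0.462, 0.227, 0.783, 0.0626 and 0.161%. Its highest value was on day 5, where 792 reads covered the locus, against 10146 on day 0. No trend passed, with a daily slope of -0.0331 ± 0.0362 points (exact permutation p = 0.40) or, over the 5 deep libraries, of -0.0374 (exact permutation p = 0.058). Without day 5 it was -0.0537 and passed (exact permutation p = 0.025).

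Of the mesendoderm regulators, EOMES, a T-box factor needed for definitive endoderm, had means of 3.28, 3.22, 2.59, 2.34, 0.895, 0.973, 0.411 and 0.620% over 113 CpGs. T, or brachyury (TBXT in RefSeq), the T-box factor of the primitive streak, had means of 7.62, 7.34, 6.22, 4.46, 4.08, 2.56, 1.88 and 1.55% over 123 CpGs. The values of T went down at every step. The slopes were -0.464 ± 0.0601 for EOMES (exact permutation p = 0.00045, and -0.284 over the 5 deep libraries) and -0.966 ± 0.0645 for T (exact permutation p = 5e-05, the smallest that 8 days allow). Over the 35 CpGs of T with 5 or more reads in every library the slope was -0.117 and still passed (exact permutation p = 0.014). The methylation lay in different places. At T the gene body stood at 16.6% on day 0 and 2.98% on day 7, with 3 downstream CpGs at 89.9% and 21.2%. At EOMES the gene body held 28 CpGs at 0.108% and 0.121%, and the methylated CpGs were those at the start.

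Of the ectoderm regulators, PAX6, a paired-box factor of eye and brain, had means of 4.30, 3.74, 3.42, 2.74, 2.77, 2.01, 1.63 and 1.14% over 334 CpGs. The slope was -0.438 ± 0.0223 points per day (exact permutation p = 9.9e-05), and -0.659 with reads summed. OTX2, a homeobox factor of the epiblast and forebrain, had means of 9.47, 8.98, 8.31, 3.56, 2.42, 2.36, 2.22 and 2.14% over 183 CpGs. Its values dropped between days 2 and 3, where the depth of the libraries also dropped, and the part of depth in this step was not tested. The slope was -1.24 ± 0.235 points per day over all days (exact permutation p = 5e-05) and -1.05 over the 5 deep libraries (exact permutation p = 0.017). With flanks of 2 kb, which leave out much of its methylated DNA, it was -0.454 (exact permutation p = 0.0079).

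SOX1, an HMG-box factor of the neural plate, had 223 CpGs with means of 0.494, 0.710, 0.471, 0.321, 0.531, 0.527, 0.178 and 0.241%. Days 6 and 7 were the lowest, but the daily slope of -0.0482 ± 0.0215 points missed the threshold (exact permutation p = 0.068). Without day 5 it was -0.0554 and passed (exact permutation p = 0.047). In reads, SOX1 had 58 methylated of 11165 on day 0 (0.519%, Wilson 95% interval 0.402 to 0.671%) and 28 of 10614 on day 7 (0.264%, 0.183 to 0.381%).

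The CpGs read around the starts were nearly free of methylation throughout, except at EOMES. Over the CpGs within 1 kb of each gene start, the day 0 mean lay between 0.0313% (T) and 0.359% (SOX17) at 8 loci and was 6.08% at EOMES. At OTX2 the nearest deeply read CpG lay at -756 bp (negative values are upstream), so its value does not cover the start itself. A fall passed the exact permutation test at 2 of 9 starts, EOMES and GATA6. The same test called a fall in 38.5% of 13868 autosomal 2-kb windows with 20 or more CpGs and a mean of 20% or less on days 0 and 1. Such windows may hold methylated CpGs, and their limit lies far above the means of 8 of the 9 starts. On day 0 the T start had 1 methylated read of 5840 (0.0171%, Wilson 95% interval 0.00302 to 0.0969%) and the FOXA2 start 2 of 2965 (0.0675%, 0.0185 to 0.246%). On day 7 they had 5 of 4673 and 1 of 2543, with overlapping intervals.

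The EOMES start had means of 6.08, 5.32, 4.70, 4.15, 1.87, 1.11, 0.741 and 1.14% over 54 CpGs. Days 0 to 3 were all above days 4 to 7, and the slope was -0.840 ± 0.104 points per day (exact permutation p = 0.0002). Over the 5 deep libraries the mean was 3.83% on day 0 and 0.805% on day 7, with a smaller slope of -0.476 (exact permutation p = 0.017). When reads were summed in place of averaging CpGs, the slope was -0.573 and did not pass (exact permutation p = 0.052). The methylation sat at its upstream edge. The 1-kb tile at chr3:27764001-27765000 (hg19), from -794 to 205 bp of the start, had 113 methylated of 502 reads on day 0 (22.5%) and 16 of 443 on day 7 (3.61%). Its fall had an adjusted p of 4.1e-05 by the tile test described below.

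At the GATA6 start, 4 of 2849 reads were methylated on day 0 and 0 of 2487 on day 7, which allows a share of up to 0.121%. The slope of -0.0197 ± 0.00626 points per day passed (exact permutation p = 0.029). It rests on a handful of reads and did not pass over the 5 deep libraries (exact permutation p = 0.067), without day 0 (0.064) or without day 7 (0.07). The starts of GATA4, SOX17, FOXA2, T, PAX6, OTX2 and SOX1 did not pass, with slopes from -0.0583 (SOX1) to 0.0292 (T) points per day.

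**Figure D2:**
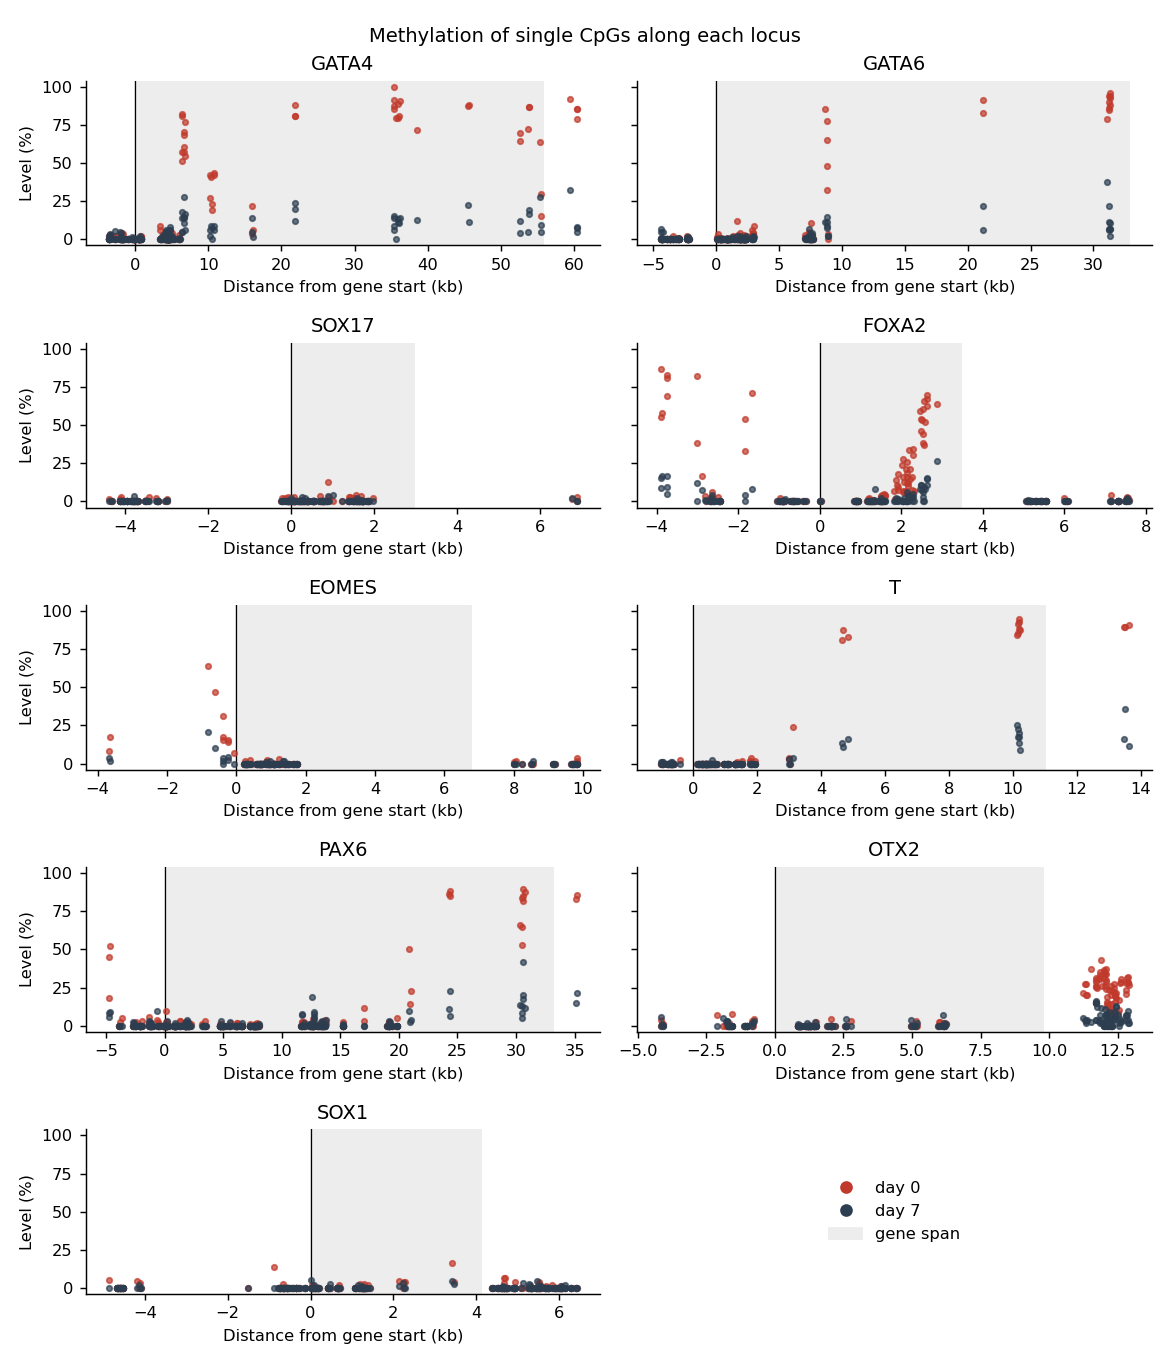
Methylation (%, vertical axis) of single CpGs with 10 or more reads in each deep library against the distance from the gene start (kb, horizontal axis), on day 0 (red) and day 7 (dark), with the gene span shaded, 1 panel per locus. Most CpGs lie near 0 on both days. Methylated CpGs on day 0 lie in the gene body at GATA4, GATA6, FOXA2, T and PAX6. They also lie upstream of the start at FOXA2, EOMES and PAX6, and beyond the gene at GATA4, T, PAX6 and OTX2. On day 7 they are lower.

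The extent of the unmethylated DNA differed between loci. It was measured outwards from the CpG nearest the start until 2 CpGs in a row exceeded 20% on days 0 and 1, a rule chosen after the data were seen and used only for description. Single CpGs above 20% therefore lie inside some stretches, 3 at FOXA2 and 1 each at EOMES, PAX6 and SOX1. PAX6 had the longest stretch of the 9, 24919 bp with 312 CpGs, from -3923 to 20995 bp, counting from the start with negative values upstream, of a gene whose span is 33170 bp. At GATA6 it ran 7701 bp into the gene, at GATA4 6094 bp and at OTX2 6221 bp. The OTX2 end does not mark where methylation begins. None of the 67 CpGs of its gene body was above 20%, and those above 20% lie beyond the gene. FOXA2 had the shortest, 3315 bp, from -1039 to 2275 bp, with methylated CpGs listed beyond both ends. At EOMES it began at -395 bp, the upstream end nearest to a start among the 9. SOX17 and SOX1 had no end inside their windows, and all 194 and 257 of their deeply read CpGs were inside the stretch. At GATA4, GATA6, T and OTX2 the upstream end is that of the CpGs listed, and at EOMES the downstream end is. Where an end is that of the CpGs listed, the length is a lower limit. The rank of PAX6 as the longest therefore holds only within the windows, which differ in size.

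**Figure D3:**
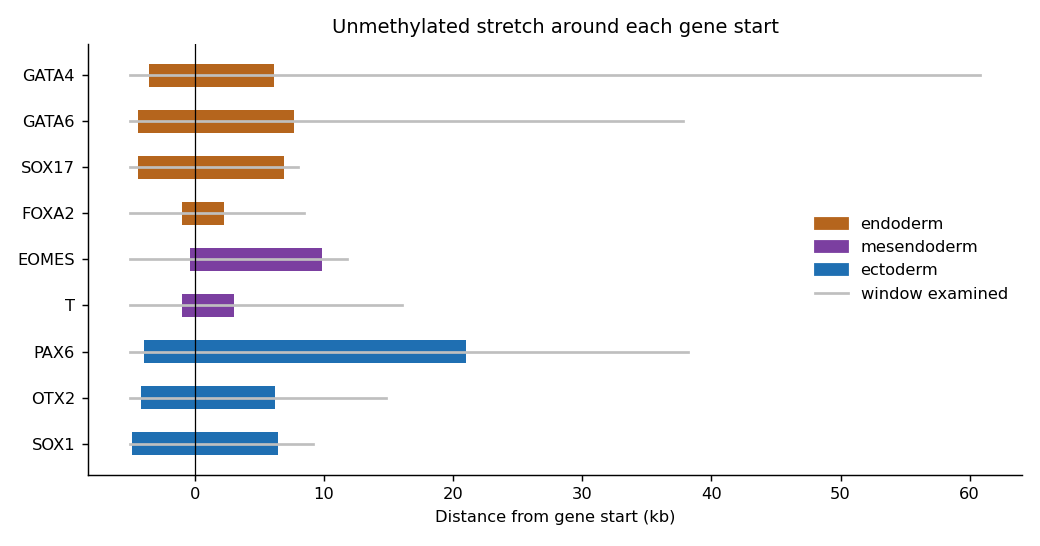
Unmethylated stretch around each gene start (coloured bar, by lineage group), ending where 2 CpGs in a row exceed 20% or at the last CpG listed, in the window examined (grey line), with distance from the start in kb along the gene's strand. The PAX6 bar reaches 20995 bp downstream and the EOMES bar begins at -395 bp.

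At FOXA2 deeply read CpGs lay on both sides of the downstream edge of the stretch. The CpGs named here are picked examples, and those between them are not given, so an even rise is not shown. Going into the gene, the CpG at 1495 bp from the start had 0% on day 0, that at 1904 bp 11%, that at 2277 bp 30.2% and that at 2591 bp 52.4%, of 126 reads. On day 7 these CpGs had 0, 0, 2.70 and 8.18%. In GATA6 the CpG at 7701 bp had 0% of 11 reads on day 0 and the next deeply read one, at 8667 bp, 85.7% of 63, with no deeply read CpG between them, so the shape of that edge was not seen. The CpG at 8667 bp was at 64.7% on day 2 and 11.1% on day 7. A little further on, at 8854 bp, the level was 0% on day 0 and 2.44% on day 7, so not every CpG past the edge was methylated.

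At OTX2 no CpG of the gene body was above 20%. Its 44 CpGs above 20% belonged to a dense block of 68 CpGs in the downstream flank, between 11227 and 12901 bp from the start, at 24.8, 23, 21.2, 8.37, 5.73, 5.60, 5.38 and 5.12% on days 0 to 7. Single CpGs of the block, among those deeply read, reached at most 43.2% on day 0. The OTX2 gene body, with 67 CpGs, was at 0.324% on day 0 and 0.348% on day 7.

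Along the loci, 1-kb tiles with 3 or more CpGs and 10 or more reads per library were tested for a trend by quasi-binomial regression on day, with Benjamini-Hochberg adjustment over all 203871 autosomal tiles. Of the 90 tiles of the 9 loci, 22 fell, 1 rose and 67 did not pass at an adjusted p of 0.05. Over all tiles 88.5% fell and 0.00687%, or 14 tiles, rose. With so many falls the adjustment was slight, and the called tile closest to the threshold had an unadjusted p of 0.0443 by this regression. The count of falls follows the starting level. All 6 member tiles in the highest class, 80% or more on days 0 and 1, fell (100% of all such tiles), as did all 11 between 20% and 80% (100%, or 89866 of 89878). Of the 73 at 20% or less, 5 fell, or 6.85%, against 23.2% of 30483 such tiles, and 1 rose, against 0.0459%. They are the same 6 that had an unadjusted p below 0.05, so for this class the call is close to an unadjusted one. The 73 member tiles had a median starting level of 0.341% against 0.344% for the others of this class, and a 75th percentile of 0.915% against 2.29%. Over the 5 deep libraries 36 of 108 member tiles fell, and with 30 or more reads per library 10 of 67. The share of all tiles that fell at these 2 settings is not given here, so these counts have no background beside them.

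**Figure D4:**
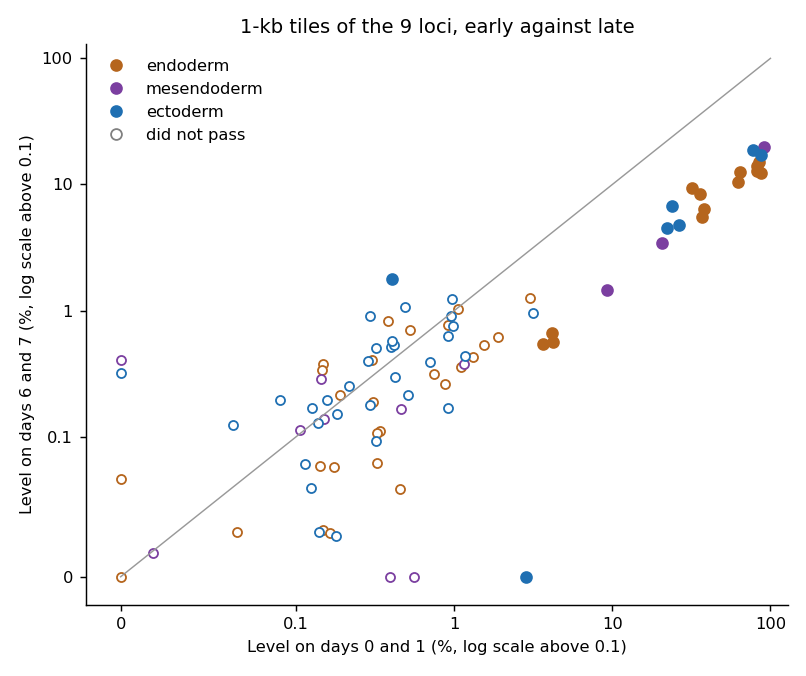
Level of each of the 90 member tiles on days 6 and 7 pooled (vertical axis, %) against days 0 and 1 pooled (horizontal axis, %), both on a log scale above 0.1, coloured by lineage group, with open points for tiles that did not pass. The 6 tiles that began at 80% or more ended between 12.4% and 19.8%, against a median of 19.7% for other such tiles.

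By locus, falls numbered 5 of 13 tiles at GATA4, 4 of 12 at GATA6, 4 of 9 at FOXA2, 4 of 21 at PAX6, 2 of 9 at OTX2, 2 of 6 at T, 1 of 6 at EOMES, 0 of 6 at SOX17 and 0 of 8 at SOX1. No tile that held a gene start fell, other than that of EOMES, and the start tile of OTX2 could not be tested, since too few of its CpGs were listed in every library. The largest fitted fall of a member tile was in GATA6 at chr18:19780001-19781000, where 378 of 417 reads were methylated on day 0 (90.6%) and 34 of 369 on day 7 (9.21%). The fitted change was -82.3 points (adjusted p = 6.4e-09). In PAX6 the tile at chr11:31815001-31816000 went from 334 of 384 reads (87.0%) to 57 of 369 (15.4%), and in T that at chr6:166568001-166569000 from 166 of 184 (90.2%) to 28 of 152 (18.4%). The latter lies beyond the end of the gene and had the highest late level of the member tiles that began at 80% or more. It was 19.8% on days 6 and 7, against a median of 19.7% for other autosomal tiles of this class.

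At GATA4 the largest fall was at chr8:11597001-11598000, from 404 of 474 reads (85.2%) to 43 of 401 (10.7%). At FOXA2 it was at chr20:22568001-22569000, upstream of the start, from 205 of 334 (61.4%) to 30 of 303 (9.90%), and at OTX2 at chr14:57265001-57266000, in the block of 68 CpGs, from 535 of 1943 (27.5%) to 71 of 1641 (4.33%). Fitted changes were -77.0, -59.4 and -27.1 points, with adjusted p values of 6.5e-09, 2.5e-08 and 6.6e-07 by the tile test. No annotation of hg19 was used here, so exons and introns are not told apart.

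A single member tile rose, inside PAX6 at chr11:31826001-31827000, 12509 to 13508 bp from the start. Over its 34 CpGs, 8 of 2076 reads carried methylation on day 0 (0.385%, with a Wilson 95% interval of 0.195 to 0.759%), 4 of 914 on day 1, 9 of 1832 on day 2, 31 of 1573 on day 6 (1.97%) and 24 of 1543 on day 7 (1.56%, 1.05 to 2.30%). The fitted change was 1.64 points (adjusted p = 0.023 and unadjusted p = 0.02 by the tile test). The call was lost when day 0, 1, 2, 6 or 7 was left out, and over the 5 deep libraries. One CpG, at 31826900, had 0 of 67 reads methylated on day 0, 0 of 19 on day 1, 4 of 43 on day 2, 14 of 52 on day 6 and 8 of 43 on day 7. Without it the tile had 0.398% on day 0 and 1.07% on day 7.

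The 47 CpGs at 80% or more had a mean of 88.1% on day 0 and 14.9% on day 7, and kept 16.9%. Such CpGs in the rest of the autosomes, 1001829 of them, had a mean of 88.9% on day 0, of which 83.3% was kept on day 2 and 21.0% on day 7. At GATA6, 11 CpGs had means of 89.7, 78.5, 71.5, 33.0, 27.0, 22.9, 12.9 and 10.2%, and kept 11.4%. At GATA4, 14 CpGs had 88.0, 83.9, 71.2, 39.6, 28.0, 19.9, 15 and 14.6%, and kept 16.6%. At PAX6, 10 CpGs had 85.7, 82.5, 71.5, 47.8, 48.7, 40.2, 21.6 and 18.0%, and kept 21.0%. The 9 CpGs of T kept 20.1% and the 3 of FOXA2 16.6%. Loci with fewer than 10 such CpGs were not tested.

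The ratio of the locus mean to that of the rest, on the natural log scale, had a slope of -0.0878 ± 0.0179 per day at GATA6 (exact permutation p = 0.0054) and -0.0578 ± 0.0182 at GATA4 (exact permutation p = 0.025), so both passed as faster. PAX6 did not pass (0.0139 ± 0.0222, exact permutation p = 0.53). Of 13063 autosomal 50-kb windows with 10 to 20 such CpGs, 2.76% passed as faster and 2.69% as slower. A lower slope than that of GATA6 was found in 0.383% of these windows, than that of GATA4 in 2.42% and than that of PAX6 in 77.3%. The windows were chosen by their number of such CpGs and not by how closely these lie, which bears on the rank of GATA6. Over the 5 deep libraries the slopes were -0.0850 at GATA6 (exact permutation p = 0.017) and -0.0362 at GATA4 (exact permutation p = 0.0083). The call at GATA4 was lost when day 0, 1, 4 or 6 was left out, with exact permutation p values of 0.05 to 0.071.

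Most of the methylated GATA6 CpGs lay in 1 place. Of the 11, 7 lie within 100 bp, from 19780629 to 19780728, and share reads. They went from 90.9% on day 0 to 7.35% on day 7 and kept 8.09%, while the other 4 went from 87.8% to 15.2% and kept 17.3%. The 3 closest CpGs of GATA4 kept 13% and its others 17.6%. At T the 6 closest kept 18.4% and the others 23.6%. At PAX6 the 4 closest kept 26.3% and the others 17.4%. The closest set thus kept less at 3 of these 4 loci and more at PAX6. These sets were compared after their values were seen and without a test.

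At the other end of the scale, 1754 deeply read CpGs of the 9 loci were at 20% or less, and 80.6% of them had no methylated read on days 6 and 7, against 83.7% of such CpGs in the rest of the autosomes. Of the 1754, 5 (0.285%) were higher by 5 points or more on days 6 and 7 than on days 0 and 1, against 0.142% in the rest, with no test of the difference. Of these 5, 3 belonged to GATA4 and 2 to PAX6. The share with no methylated read was 91.8% at SOX17, 91.0% at SOX1, 89.2% at EOMES, 85.6% at T, 81.7% at GATA6, 79.8% at FOXA2, 74.0% at PAX6, 70.4% at GATA4 and 64.7% at OTX2. Depth and starting level bear on these shares, and their part was not tested.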

How the data were processed

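RRBS of 8 libraries, 1 per day, was analysed. Per the submitters' processing notes the build is hg19, and no source used here names the aligner, caller or read filters. The files that the authors deposited list methylated and total read counts per CpG, with a score. The deposited score equals 1000 times the methylated share, to within rounding, in 100% of lines, so the read counts were used. CpGs were joined by position, counted from 1. Mean levels used CpGs listed in all 8 libraries, and the alternatives are given at the end of the text. Gene starts were taken as the 5′ end of each span.

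Trends were least-squares slopes on day with exact two-sided permutation over 40320 orders of 8 days, or 120 orders of 5. Windows of 20 kb, 2 kb and 50 kb gave the background and were added after the data were seen. Tiles of 1 kb were those with most of their CpGs in a locus window. Their dispersion was moderated with limma 3.58.1 (R 4.3.3) and kept at 1 or more. The test as first planned made too many false calls on simulated reads of unequal depth, so reads were scaled for the spread between libraries, estimated in 11 bins of level. With 20000 simulated tiles, the scaled test made 7 false calls, 5.83% of its calls, and found 113 of 200 planted trends. On the log-odds scale it found 98% of falls of -0.4 per day, 52% at -0.2, 10% at -0.1 and 66% of rises of 0.2. A tile that did not pass may thus still have changed. Simulated levels were not taken as low as those of most member tiles at 20% or less. The share of false calls therefore does not carry over to those tiles. Tiles named are, per locus, the tile holding the start, the largest fall past the threshold, each rise, and the highest late level among tiles at 80% or more. The members and lists were chosen with earlier results of these data known. Other tools were Python 3.11.15, numpy 2.4.6, pandas 2.3.3 and matplotlib 3.10.9.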

Additional observations from a re-analysis of the deposited data

How the results depend on the processing

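No paired analysis was possible because each day has 1 library and groups share no replicate pairs. Over 5 deep libraries, other read minimums, read weighting, other flanks, other class limits, other tile settings and each day left out, no trend that passed changed its sign, but several changed in size by more than 1.5 times while still passing. The mean slope went to -0.117 at T, -0.303 at EOMES and -0.782 at PAX6 with 5 or more reads, to -0.659 at PAX6 with read weighting, to -0.454 at OTX2 with 2-kb flanks and to -0.284 at EOMES over the 5 deep libraries. There the EOMES start went to -0.476 (-0.538 at 2 kb on each side) and the GATA4 ratio to -0.0362. The GATA6 start trend did not pass with read weighting (-0.0177 points per day, exact permutation p = 0.37), at 5 or more reads (-0.0283), over the 5 deep libraries (-0.0166), at 500 bp (-0.0142) or at 2 kb (-0.0258) on each side. With a day left out it ran from -0.0220 to -0.0176. The EOMES start trend did not pass with read weighting (-0.573), and the FOXA2 start passed at 2 kb (-0.288, exact permutation p = 0.0025). Leaving out a day moved the slope of the GATA4 ratio between -0.0830 and -0.0512, the mean trend of SOX17 between -0.0537 and -0.0156 and that of SOX1 between -0.0638 and -0.0356. Member tiles that fell numbered 14 with 5 or more CpGs and 10 with 30 or more reads. They numbered 36 over the 5 deep libraries, which tested 108 tiles. Without scaling of reads 32 fell, and with a day left out 19 to 22. The share of all tiles that fell or rose at the alternative settings is not given here. Member tiles that rose numbered 0 without moderation, 0 over the 5 deep libraries, 2 without scaling of reads (the form of the test first planned, kept as an alternative once scaling was added after the data were seen) and 0 to 1 with a day left out. Apart from the fewer or more tiles tested, the causes were not tested. The ratio of methylated CpGs gave no value at 5 or more reads or at a class limit of 90%, where each locus had fewer than 10 CpGs.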

Other observations

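Levels in the rest of the unmethylated class are set beside those of the 9 loci as values only. CpGs at 20% or less had a mean of 0.931% on day 0 and 0.374% on day 7 at the 9 loci (1677 CpGs), and 1.05% and 0.345% in the rest of the autosomes (750384 CpGs). By group, the day 7 mean was 0.326% for the endoderm loci, 0.135% for the mesendoderm loci and 0.507% for the ectoderm loci. At PAX6 such CpGs stood at 0.501% on day 0 and 0.442% on day 7, and at FOXA2 at 2.35% and 0.313%. The day 7 value has 1 library for each, and no difference between loci was tested.

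Near the CpG of PAX6 at 31826900, the neighbour at 31826746 had 1 methylated of 70 reads on day 0 and 4 of 45 on day 7, and that at 31826758 had 0 of 61 and 3 of 39. On day 6 these neighbours had 0 of 37 and 0 of 35. They were picked after their values were seen.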
